A study of Homo sapiens with 16 samples.

Results

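IFI6, IFI27, IFI35, IFI44, IFI44L, IFI16, IFITM1, IFITM3, BST2 and SAMD9L are genes that human cells switch on in answer to interferon, and their products act against viruses inside the cell or at its membranes. These 10 genes, of 20314 in the U251 tables and 20626 in the U343 tables, were chosen by symbol, and they were chosen on their read counts across cell line, assay and transfection in these same libraries. Their levels and changes are therefore given as a description, with no test. U251 and U343 are established human glioblastoma lines. Both were grown as bulk cultures, transfected with a miR137 mimic or a negative control mimic at 25 nM, and collected after 48 hours. RNASeq measured total RNA, and RIPSeq measured RNA recovered with antibodies against the poly(A) binding protein PABP. Each of the 8 groups (2 cell lines, 2 assays, 2 transfections) holds 2 libraries, 16 in all, and each miR137 group is compared with the control group of its own line and assay. The U251 libraries were made from random-hexamer cDNA and the U343 libraries with the TotalScript kit, so the line and the kit cannot be told apart when levels in the lines are set side by side.

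Interferons are secreted proteins that bind receptors on the cell surface and activate the kinases JAK1 and TYK2. These pass the signal on to a transcription factor complex that includes STAT2 and IRF9 and binds the interferon-stimulated response element, a short DNA motif built from repeated GAAA letters near the start of target genes. The target genes range from RNA-binding effectors to membrane proteins. The 10 genes here belong mostly to the less studied of these, the IFI and IFITM families, together with the virus tether BST2 and the growth-restraining factor SAMD9L. Glioma cells, like most other cell types, carry interferon receptors and can run this programme.

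The sequences below show what was transfected and the DNA next to the starts of these genes. The mature miR-137 that a miR-137 mimic stands for is given from RefSeq (GRCh38.p14, chr1:98046091-98046113, minus strand), with the seed, bases 2 to 8, in capitals. The exact chemistry of the mimic is not given in the sources used here.
hsa-miR-137-3p: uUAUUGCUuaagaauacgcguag
For the genes, RefSeq (GRCh38.p14) windows run from 250 bases before to 50 bases after an annotated start, 300 bases in all, 5′ to 3′ on the strand of the gene, and all 10 genes were matched by symbol. Capitals mark the core letters of the response element, GAAANNGAAA, searched on both strands (TTTCNNTTTC where the match is on the other strand). The windows of IFITM1 (the gene with the largest change), BST2 (the smallest change in 3 of the 4 experiments), IFITM3, IFI6 and IFI27 are shown, because the results below turn on these genes.
IFITM1 (chr11:313790-314089, plus strand): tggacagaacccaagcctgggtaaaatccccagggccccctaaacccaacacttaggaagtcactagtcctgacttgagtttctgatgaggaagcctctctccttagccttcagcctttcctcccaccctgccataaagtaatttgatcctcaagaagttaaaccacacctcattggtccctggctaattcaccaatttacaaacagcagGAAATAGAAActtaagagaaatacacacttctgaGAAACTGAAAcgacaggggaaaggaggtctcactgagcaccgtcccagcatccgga
IFITM3 (chr11:320811-321110, minus strand): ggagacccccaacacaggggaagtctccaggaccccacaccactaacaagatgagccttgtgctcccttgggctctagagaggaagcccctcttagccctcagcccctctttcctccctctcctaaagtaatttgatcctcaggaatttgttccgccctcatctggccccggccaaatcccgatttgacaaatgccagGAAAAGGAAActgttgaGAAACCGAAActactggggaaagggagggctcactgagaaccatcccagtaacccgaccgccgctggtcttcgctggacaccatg
BST2 (chr19:17405581-17405880, minus strand): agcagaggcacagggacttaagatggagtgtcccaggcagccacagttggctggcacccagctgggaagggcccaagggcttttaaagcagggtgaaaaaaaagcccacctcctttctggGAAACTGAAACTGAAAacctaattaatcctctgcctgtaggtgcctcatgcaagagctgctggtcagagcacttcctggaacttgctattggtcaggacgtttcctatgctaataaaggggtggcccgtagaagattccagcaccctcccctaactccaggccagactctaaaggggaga
IFI6 (chr1:27672143-27672442, minus strand): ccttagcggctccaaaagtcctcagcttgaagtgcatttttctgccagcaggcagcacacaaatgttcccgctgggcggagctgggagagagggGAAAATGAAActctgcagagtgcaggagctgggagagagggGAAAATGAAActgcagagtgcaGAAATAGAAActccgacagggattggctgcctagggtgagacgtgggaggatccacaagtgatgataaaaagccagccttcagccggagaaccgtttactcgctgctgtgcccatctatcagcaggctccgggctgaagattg
IFI27 (chr14:94110486-94110785, plus strand): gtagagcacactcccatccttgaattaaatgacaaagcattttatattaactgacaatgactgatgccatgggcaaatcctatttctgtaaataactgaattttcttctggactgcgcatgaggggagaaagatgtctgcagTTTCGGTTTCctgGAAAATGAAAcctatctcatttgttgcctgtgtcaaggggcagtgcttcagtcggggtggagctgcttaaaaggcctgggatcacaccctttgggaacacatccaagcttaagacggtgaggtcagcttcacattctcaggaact

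The core letters occurred in the window of 7 of the 10 genes, while 4.38% of the 27305 genes with a window in the same table held them in at least 1 window. The 3 genes with no match in this window were IFI35, IFI16 and SAMD9L. The longer form GAAANNGAAACT occurred in 6 of the 10, against 0.322% of all genes. IFI6 had 3 matches, starting at -156, -115 and -93 from the start, and all 3 were of the longer form. IFITM1 had a match at -40 and another that ran across the start itself, from -6 to 4. IFITM3 had matches at -52 and -35, only 17 bases apart, and both were of the longer form. The matches of BST2, at -130 and -124, overlapped each other and share the middle GAAA. In its first window, IFI27 had a match at -108 on the other strand and one at -95 on its own strand. In its second window these lay at -187 and -174. In the first window of IFI44 the single match at -18 lay on the other strand, and read along that strand it was GAAACTGAAAct. Its position in the second window of IFI44 was -60. IFI44L had the same letters at both of its matches, -164 and -73, GAAAAAGAAAgt, which are the core form only. Among 26 other interferon-stimulated genes with a window in the table, 19 (73.1%) held the core letters and 13 (50%) the longer form. A match is a description of the letters and not a measured binding site.

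**Figure D1:**
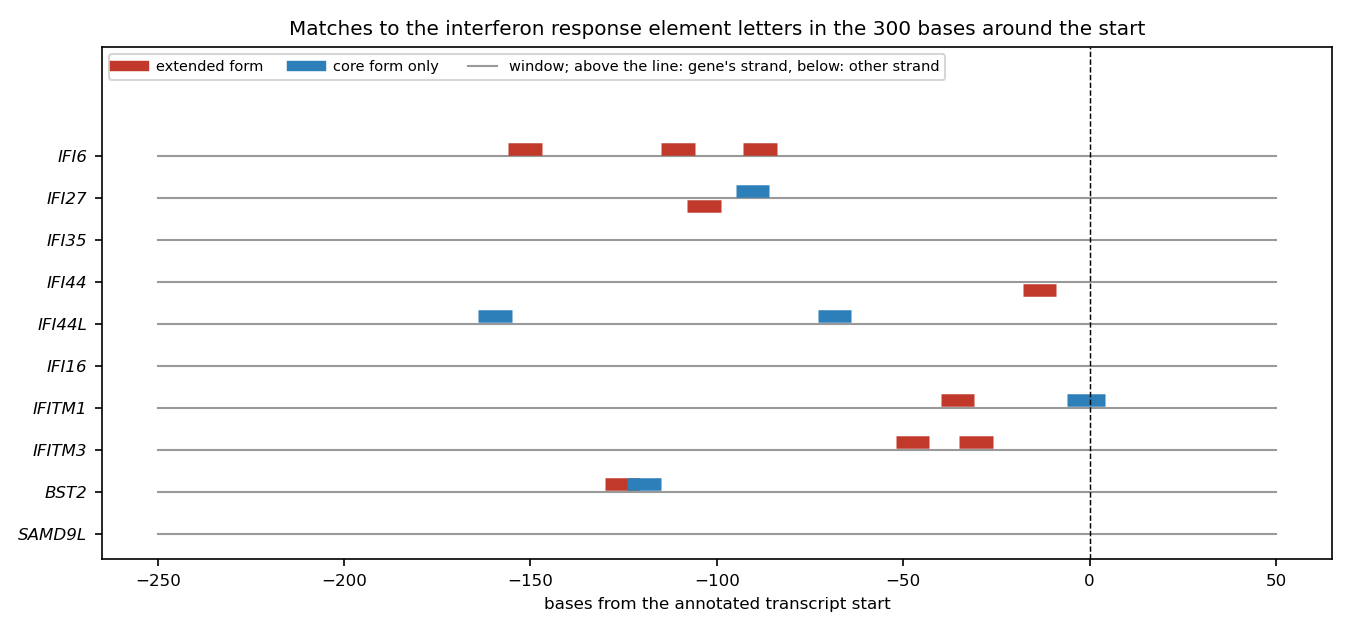
Positions of the response element letters in the window of each of the 10 genes, in bases from the annotated transcript start (x axis); boxes above a line lie on the gene's strand and boxes below it on the other strand, red for the longer form and blue for the core form only. Matches in the first window of each gene sit within -164 to 4, and the lines of IFI35, IFI16 and SAMD9L are empty.

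The libraries held 10156675 to 18224061 counted reads in U251 RNASeq, 22359794 to 30731476 in U251 RIPSeq, 37952273 to 45134766 in U343 RNASeq and 37736206 to 45055184 in U343 RIPSeq. All 8 glial and glioma markers (GFAP, VIM, NES, S100B, SOX2, SOX9, EGFR and CD44) reached 1 CPM in the controls of both lines, as they did in the miR137 libraries except for S100B in U251. CPM, the standard depth-scaled unit of read counts, are reads divided by library totals that were scaled by TMM factors within each of the 4 experiments (a line and an assay), so levels set side by side across experiments were scaled separately. Among 12 leukocyte and endothelial markers, PTPRC, CD3E and SPI1 stayed under 1 CPM in every library, while CD68, KDR, CDH5 and VWF, whose levels are given further on, reached more than that in at least 1 line.

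Among the libraries, 1 stood apart for these genes. In U343 RNASeq, miR137 replicate 1 had the 10 genes at 0.259 to 2.76 times their control mean (median 1.26), whereas miR137 replicate 2 had them at 3.18 to 564 times (median 21.0). The controls of U251 RIPSeq also differed from each other, with control replicate 2 at 0.353 to 2.59 times control replicate 1 over the 10 genes. Medians and the comparisons between assays and lines are given below with and without these libraries. The values gene by gene use both libraries of each group unless said otherwise. With 2 libraries per group, and with nothing in the labels that says they came from separate cultures, any p-value here measures the spread between libraries, which may be technical.

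All 10 genes were higher in both miR137 libraries than in both controls in U251 RNASeq, U251 RIPSeq and U343 RIPSeq. Together they took 0.0299% and 0.0289% of counted reads in the U251 RNASeq controls and 0.808% and 0.915% after miR137. In U251 RIPSeq the share was 0.0354% and 0.0293% in the controls and 1.07% and 1.18% after miR137. The U343 RIPSeq share was 0.0420% and 0.0422% against 0.830% and 0.884%. In U343 RNASeq it was 0.0358% and 0.0367% in the controls, 0.0417% in miR137 replicate 1 and 0.501% in miR137 replicate 2. These are pooled cultures, in which fewer responding cells and less RNA per cell cannot be told apart.

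Over the 10 genes the median log2 fold change was 4.96 in U251 RNASeq, 4.99 in U251 RIPSeq and 4.35 in U343 RIPSeq, while the median of all genes tested was 0.02, -0.02 and 0.00. In U343 RNASeq it was 3.42 with both miR137 libraries, 4.36 without miR137 replicate 1 and 0.33 without miR137 replicate 2, where 7 of the 10 lay above 0. With replicate number as a block it was 2.13. In U251 RIPSeq the median was 4.75 without control replicate 1 and 5.46 without control replicate 2. IFITM1 had the largest fold change in each of the 4 experiments. BST2 had the smallest in U251 RIPSeq, U343 RNASeq and U343 RIPSeq, and IFI16 the smallest in U251 RNASeq.

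By edgeR's quasi-likelihood test with an adjusted p under 0.05, 10 of the 10 were higher in U251 RNASeq, where 28.7% of all genes tested were called higher and 29% lower. In U251 RIPSeq 8 of the 10 were called (all but BST2 and IFITM3), with 0.944% of all genes called higher and 0.263% lower. Without control replicate 1, or without control replicate 2, all 10 were called in U251 RIPSeq, and then 32.8% or 40.2% of all genes were called higher too. DESeq2 called all 10 there with both controls, and its share of all genes is not given here. In U343 RIPSeq 10 of the 10 were called, beside 28.5% of all genes higher and 27.8% lower. In U343 RNASeq edgeR called 0 of the 10, beside 8.31% of all genes higher and 11.7% lower. There 4 of the 10 had an unadjusted p under 0.05, and DESeq2 called 6. The share of all genes at those settings is not given here, so these counts have no background beside them. Without miR137 replicate 1 the log2 fold changes of the 10 ran from 1.66 to 9.16. Without miR137 replicate 2 they ran from -1.90 to 1.49. The genes were chosen on these contrasts, so nothing is read from these counts.

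The study's own rule asked for Fisher's exact tests in all 4 pairs of a control and a miR137 library, and took those with odds ratios above 2 at adjusted p-values below 0.001. Turned around to find genes that were higher, it named all 10 genes in U251 RNASeq (6.14% of all genes), in U251 RIPSeq (3.47%) and in U343 RIPSeq (4.83%). In U343 RNASeq it named 0 of the 10 (1.51% of all genes). How far replicates lie apart does not enter the separate Fisher tests. It does enter through the demand that all 4 pairs pass, because a library unlike its replicate can keep a gene out.

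**Figure D2:**
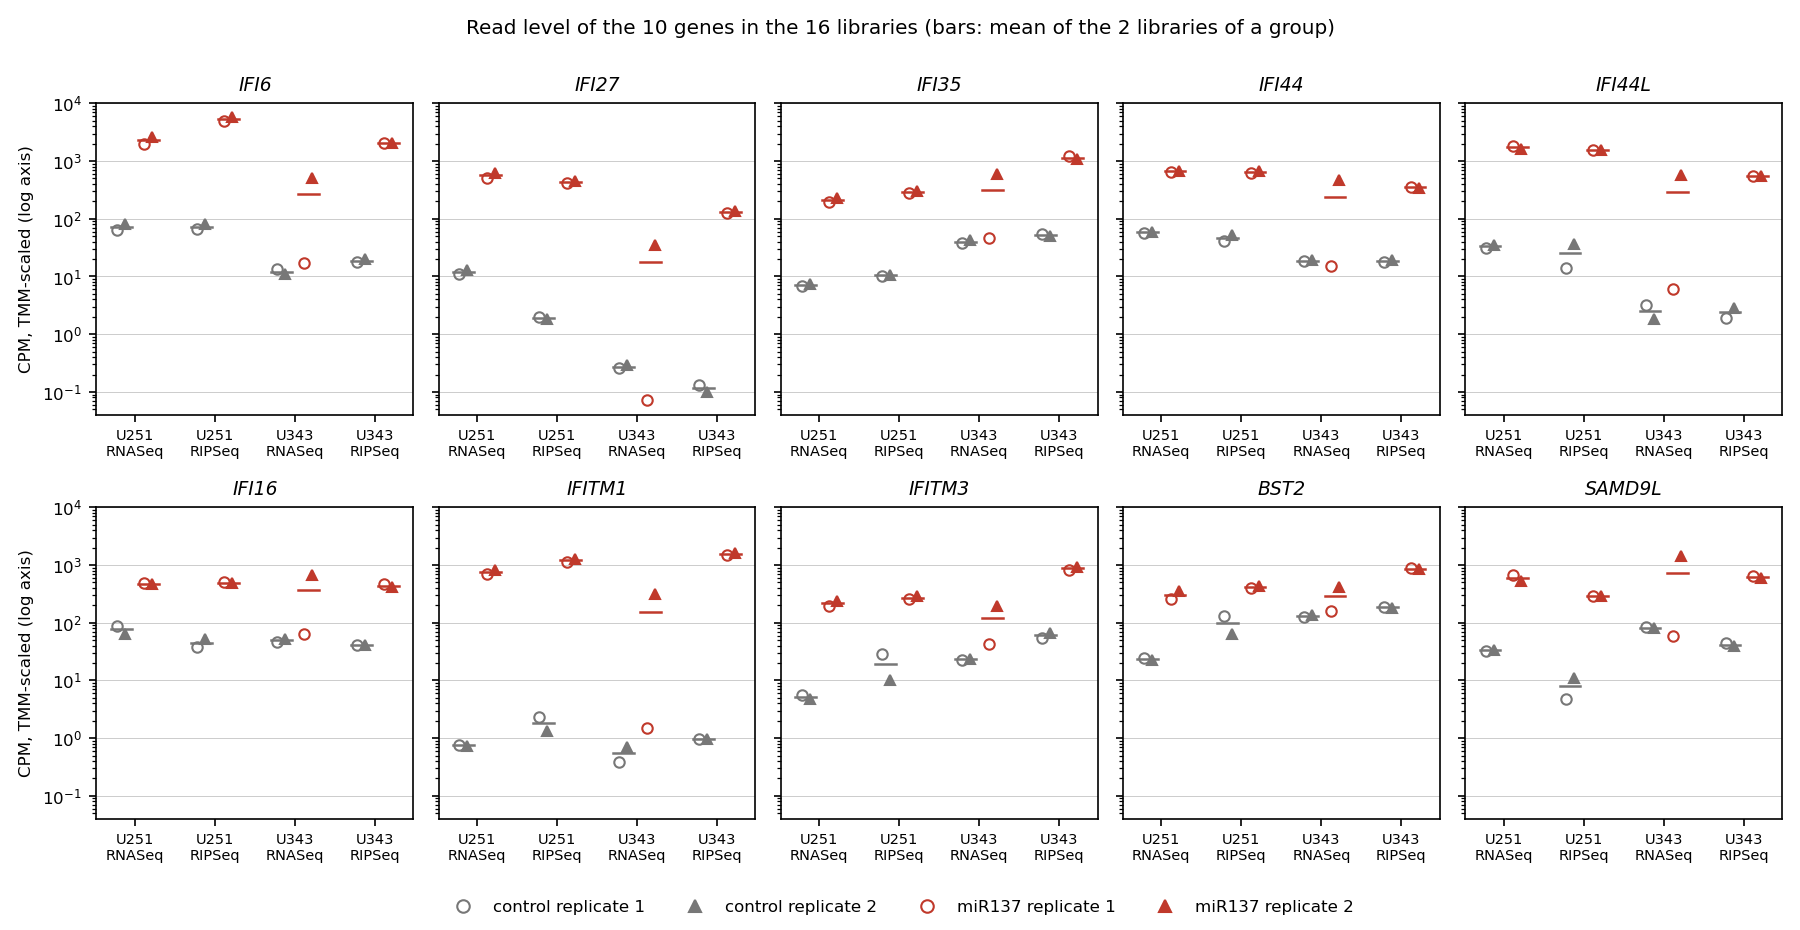
CPM (log axis) of each of the 10 genes in the 16 libraries, by cell line and assay; grey marks controls and red marks miR137, circles replicate 1 and triangles replicate 2, with a bar at the mean of each group of 2. In U343 RNASeq the red circles lie at 0.259 to 2.76 times the mean of the grey marks, and the red triangles at 3.18 to 564 times.

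IFITM1 and IFITM3 encode small transmembrane proteins that hold back enveloped viruses as they enter the cell, IFITM1 mostly at the cell surface and IFITM3 mostly in endosomes. They lie near each other on chromosome 11 (hg18, chr11:303991-305272 and chr11:309673-310914). In U251 RNASeq, IFITM1 had 12 and 12 reads in the controls (0.767 and 0.734 CPM) and 7726 and 9424 in the miR137 libraries (697 and 836 CPM). The controls held 12 reads each, so the gene was close to silent before miR137. For U251 RIPSeq, IFITM1 had 55 and 37 reads in the controls (2.36 and 1.32 CPM) and 30049 and 35282 in the miR137 libraries (1150.4 and 1298 CPM). In U343 RNASeq, IFITM1 had 18 and 27 reads in the controls (0.390 and 0.713 CPM) and 64 and 13192 in the miR137 libraries (1.52 and 311 CPM). Replicate 1 was above both controls but stayed under 2 CPM, while replicate 2 was far above. U343 RIPSeq gave IFITM1 43 and 40 reads in the controls (0.953 and 0.984 CPM) and 58475 and 62371 in the miR137 libraries (1498 and 1592 CPM). The summed IFITM1 reads, scaled for depth, were 1023-fold (exact 95% counting interval 687 to 1598) higher after miR137 in U251 RNASeq and 1597-fold (exact 95% counting interval 1288 to 2005) in U343 RIPSeq. These intervals cover counting error of reads only and leave out the spread between libraries. Whether PCR copies of 1 molecule were removed is not given in the sources used here. The log2 fold change of IFITM1 in edgeR was 9.98 ± 0.24 (SE) in U251 RNASeq, 9.38 ± 0.44 in U251 RIPSeq, 8.16 ± 2.72 in U343 RNASeq and 10.64 ± 0.17 in U343 RIPSeq.

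IFITM3 changed less than IFITM1 in every experiment. In U251 RNASeq, IFITM3 had 89 and 77 reads in the controls (5.69 and 4.71 CPM) and 2199 and 2721 in the miR137 libraries (198 and 242 CPM). For U251 RIPSeq, IFITM3 had 677 and 286 reads in the controls (29.0 and 10.2 CPM) and 6623 and 7955 in the miR137 libraries (254 and 293 CPM). The controls of that experiment differed from each other by more than for any other of the 10 genes in that direction, and the miR137 libraries lay above both. The log2 fold change of IFITM3 there was 4.73 without control replicate 1 and 3.32 without control replicate 2. In U343 RNASeq, IFITM3 had 1032 and 902 reads in the controls (22.3 and 23.8 CPM) and 1828 and 8386 in the miR137 libraries (43.4 and 198 CPM). U343 RIPSeq gave IFITM3 2493 and 2699 reads in the controls (55.3 and 66.4 CPM) and 31892 and 36440 in the miR137 libraries (817 and 930.4 CPM). Here replicate 1 of U343 RNASeq was at 1.88 times the control mean and replicate 2 at 8.57 times. For IFITM3 the log2 fold change was 5.40 ± 0.18, 3.80 ± 0.59, 2.39 ± 0.74 and 3.84 ± 0.14 in U251 RNASeq, U251 RIPSeq, U343 RNASeq and U343 RIPSeq. The close relative IFITM2, which was not among the 10, had 7 and 3 reads in the controls and 70 and 121 in the miR137 libraries in U251 RNASeq and 852 and 958 reads in the controls and 8103 and 8164 in the miR137 libraries in U343 RIPSeq. It rose in both (log2 fold change 4.73 ± 0.41, edgeR adjusted p = 6.95e-07, and 3.29 ± 0.12, edgeR adjusted p = 1.40e-06). IFITM5, the bone-restricted relative, had at most 8 reads in any group. The IFITM genes are related in sequence to differing degrees and IFITM3 has 9 annotated pseudogenes by symbol, so how reads were shared among them is uncertain.

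BST2, also called tetherin, is a membrane protein that ties budding virus particles to the cell surface (hg18, chr19:17374755-17377384). It was already well expressed in the controls. In U251 RNASeq, BST2 had 377 and 374 reads in the controls (24.1 and 22.9 CPM) and 2840 and 3958 in the miR137 libraries (256 and 351 CPM). For U251 RIPSeq, BST2 had 3074 and 1809 reads in the controls (132 and 64.8 CPM) and 10610 and 11864 in the miR137 libraries (406 and 436 CPM). The spread between those controls was large beside the change, which was 4.29-fold between group means. Its log2 fold change there was 2.70 without control replicate 1 and 1.77 without control replicate 2. In U343 RNASeq, BST2 had 5716 and 5168 reads in the controls (124 and 136 CPM) and 6669 and 17538 in the miR137 libraries (158 and 414 CPM). U343 RIPSeq gave BST2 8416 and 7459 reads in the controls (187 and 183 CPM) and 34229 and 33428 in the miR137 libraries (877 and 853 CPM). Both U343 miR137 libraries of total RNA were above both controls, replicate 1 at 1.22 times the control mean and replicate 2 at 3.18 times. On the log2 scale the fold change of BST2 was 3.69 ± 0.17, 2.10 ± 0.41, 1.14 ± 0.47 and 2.23 ± 0.10 in the same order of experiments as for IFITM3.

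IFI6 and IFI27 encode small hydrophobic proteins of internal membranes, IFI6 known for restraining cell death and flavivirus replication and IFI27 for a link to mitochondria. They lie on different chromosomes (hg18, chr1:27865159-27871311 and chr14:93646832-93652786). In U251 RNASeq, IFI6 had 1002 and 1306 reads in the controls (64.0 and 79.9 CPM) and 21855 and 30038 in the miR137 libraries (1972 and 2666 CPM). For U251 RIPSeq, IFI6 had 1551 and 2246 reads in the controls (66.5 and 80.4 CPM) and 126908 and 156273 in the miR137 libraries (4859 and 5749 CPM). The control levels of the assays lay close to each other, and the miR137 levels were higher in RIPSeq. In U343 RNASeq, IFI6 had 623 and 413 reads in the controls (13.5 and 10.9 CPM) and 721 and 21835 in the miR137 libraries (17.1 and 515 CPM). U343 RIPSeq gave IFI6 795 and 821 reads in the controls (17.6 and 20.2 CPM) and 79187 and 79610 in the miR137 libraries (2028 and 2033 CPM). Control levels of IFI6 were lower in U343 than in U251 in both assays, with no overlap of libraries, in CPM that were scaled separately for each experiment. For IFI6 the log2 fold change was 5.01 ± 0.21, 6.17 ± 0.23, 4.45 ± 1.61 and 6.75 ± 0.15, in the same order.

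As a ratio, IFI27 had the widest gap of the 10 in control CPM between the lines. In U251 RNASeq, IFI27 had 175 and 216 reads in the controls (11.2 and 13.2 CPM) and 5594 and 7104 in the miR137 libraries (505 and 631 CPM). For U251 RIPSeq, IFI27 had 46 and 52 reads in the controls (1.97 and 1.86 CPM) and 11100 and 12518 in the miR137 libraries (425 and 460.5 CPM). In these controls the RIPSeq level was below the RNASeq level in every library. In U343 RNASeq, IFI27 had 12 and 11 reads in the controls (0.260 and 0.290 CPM) and 3 and 1501 in the miR137 libraries (0.0712 and 35.4 CPM). U343 RIPSeq gave IFI27 6 and 4 reads in the controls (0.133 and 0.0984 CPM) and 4874 and 5338 in the miR137 libraries (125 and 136 CPM). With so few control reads in U343, the summed IFI27 reads were 1120.0-fold (exact 95% counting interval 609 to 2336) higher after miR137 in RIPSeq. Replicate 1 of U343 RNASeq, at 3 reads, was the lowest of all 16 libraries for this gene, and its ratio to the summed controls was 0.260 (exact 95% counting interval 0.050 to 0.862). The log2 fold change of IFI27 was 5.54 ± 0.18, 7.85 ± 0.29, 6.0 ± 2.50 and 10.09 ± 0.16, in the same order. The relatives IFI27L1 and IFI27L2 changed far less. IFI27L1 was higher by 1.00 ± 0.20 on the log2 scale in U251 RNASeq (edgeR adjusted p = 6.77e-04) and by 0.50 ± 0.13 in U343 RIPSeq (adjusted p = 0.0135). IFI27L2 was higher by 0.79 ± 0.18 (edgeR adjusted p = 0.00178) and 1.14 ± 0.25 (adjusted p = 0.00544) in the same experiments. In U251 RIPSeq neither passed the threshold (edgeR adjusted p = 0.336 and 0.902).

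IFI44 and IFI44L are neighbours on chromosome 1 (hg18, chr1:78888065-78902351 and chr1:78858676-78884418) and encode related cytoplasmic proteins of the antiviral response. In U251 RNASeq, IFI44 had 899 and 983 reads in the controls (57.4 and 60.1 CPM) and 7205 and 7701 in the miR137 libraries (650.2 and 684 CPM). For U251 RIPSeq, IFI44 had 961 and 1477 reads in the controls (41.2 and 52.9 CPM) and 16445 and 18070 in the miR137 libraries (629.6 and 665 CPM). The levels of the assays lay close to each other in this line, before and after. In U343 RNASeq, IFI44 had 855 and 732 reads in the controls (18.5 and 19.3 CPM) and 644 and 19856 in the miR137 libraries (15.3 and 468 CPM). U343 RIPSeq gave IFI44 810 and 776 reads in the controls (18.0 and 19.1 CPM) and 13995 and 13391 in the miR137 libraries (358 and 342 CPM). Replicate 1 of U343 RNASeq was below both of its controls. On the log2 scale the fold change of IFI44 was 3.50 ± 0.15, 3.78 ± 0.25, 3.68 ± 1.56 and 4.24 ± 0.10, in the same order.

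IFI44L changed more than IFI44 in all 4 experiments. In U251 RNASeq, IFI44L had 492 and 579 reads in the controls (31.4 and 35.4 CPM) and 20466 and 18164 in the miR137 libraries (1847 and 1612 CPM). For U251 RIPSeq, IFI44L had 328 and 1017 reads in the controls (14.1 and 36.4 CPM) and 40436 and 42929 in the miR137 libraries (1548 and 1579 CPM). Control replicate 2 was above control replicate 1 there, the opposite of BST2 and IFITM3. In U343 RNASeq, IFI44L had 150 and 70 reads in the controls (3.25 and 1.85 CPM) and 259 and 24411 in the miR137 libraries (6.15 and 576 CPM). U343 RIPSeq gave IFI44L 86 and 116 reads in the controls (1.91 and 2.85 CPM) and 21700 and 21650 in the miR137 libraries (556 and 553 CPM). Its replicate 1 of U343 RNASeq was above both controls, at 2.41 times their mean, and replicate 2 was at 226 times. For IFI44L the log2 fold change was 5.69 ± 0.18, 5.95 ± 0.58, 6.83 ± 2.26 and 7.87 ± 0.19, in the same order.

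IFI16 encodes a sensor of foreign DNA of the PYHIN family, found mainly in the nucleus (hg18, chr1:157246306-157291569). In U251 RNASeq, IFI16 had 1385 and 1051 reads in the controls (88.5 and 64.3 CPM) and 5368 and 5207 in the miR137 libraries (484 and 462 CPM). For U251 RIPSeq, IFI16 had 882 and 1475 reads in the controls (37.8 and 52.8 CPM) and 13193 and 13053 in the miR137 libraries (505 and 480.2 CPM). All 4 miR137 libraries of U251 were between 462 and 505 CPM. In U343 RNASeq, IFI16 had 2179 and 1944 reads in the controls (47.2 and 51.3 CPM) and 2697 and 28418 in the miR137 libraries (64.0 and 670.1 CPM). U343 RIPSeq gave IFI16 1851 and 1651 reads in the controls (41.0 and 40.6 CPM) and 18468 and 16032 in the miR137 libraries (473 and 409 CPM). The log2 fold change of IFI16 was 2.63 ± 0.16, 3.44 ± 0.28, 2.90 ± 1.11 and 3.43 ± 0.11, in the same order. AIM2, a cytosolic DNA sensor of the same family, had 1 and 0 reads in the controls and 59 and 71 in the miR137 libraries in U251 RNASeq (ratio of summed reads 186-fold (exact 95% counting interval 32.8 to 7409), edgeR adjusted p = 1.94e-07). In U343 RIPSeq, AIM2 had 5 and 2 reads in the controls and 98 and 109 in the miR137 libraries (log2 fold change 4.97 ± 0.34, edgeR adjusted p = 2.04e-05). The family members MNDA and PYHIN1, known from blood cells, had at most 8 and 10 reads in any group and did not pass the filter on low counts.

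IFI35 encodes a leucine zipper protein that binds NMI, another interferon-induced protein (hg18, chr17:38412295-38420001). In U251 RNASeq, IFI35 had 107 and 120 reads in the controls (6.84 and 7.34 CPM) and 2189 and 2598 in the miR137 libraries (198 and 231 CPM). For U251 RIPSeq, IFI35 had 239 and 302 reads in the controls (10.3 and 10.8 CPM) and 7441 and 8237 in the miR137 libraries (285 and 303 CPM). Replicates lay close to each other in all of these groups. In U343 RNASeq, IFI35 had 1730 and 1614 reads in the controls (37.5 and 42.6 CPM) and 1954 and 24953 in the miR137 libraries (46.4 and 588 CPM). U343 RIPSeq gave IFI35 2415 and 2064 reads in the controls (53.5 and 50.8 CPM) and 47211 and 42461 in the miR137 libraries (1209 and 1084 CPM). Unlike IFI6 and IFI27, IFI35 had higher control levels in U343 than in U251, again with no overlap of libraries. For IFI35 the log2 fold change was 4.91 ± 0.16, 4.80 ± 0.26, 2.99 ± 1.19 and 4.46 ± 0.13, in the same order. Its partner NMI rose by 3.33 ± 0.16 on the log2 scale in U251 RNASeq (edgeR adjusted p = 1.48e-09), by 3.84 ± 0.40 in U251 RIPSeq (adjusted p = 0.0383) and by 3.44 ± 0.10 in U343 RIPSeq (adjusted p = 5.84e-07).

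SAMD9L encodes a large cytoplasmic protein that restrains growth and poxvirus replication (hg18, chr7:92597304-92615616). In U251 RNASeq, SAMD9L had 517 and 544 reads in the controls (33.0 and 33.3 CPM) and 7506 and 6034 in the miR137 libraries (677 and 536 CPM). For U251 RIPSeq, SAMD9L had 111 and 306 reads in the controls (4.76 and 11.0 CPM) and 7481 and 7753 in the miR137 libraries (286 and 285 CPM). In this line the RIPSeq level was below the RNASeq level in both transfections. In U343 RNASeq, SAMD9L had 3852 and 3051 reads in the controls (83.4 and 80.5 CPM) and 2521 and 59855 in the miR137 libraries (59.9 and 1411 CPM). U343 RIPSeq gave SAMD9L 1988 and 1592 reads in the controls (44.1 and 39.1 CPM) and 25642 and 22899 in the miR137 libraries (657 and 585 CPM). Replicate 1 of U343 RNASeq was below both controls, at 0.730 times their mean, while replicate 2 was at 17.2 times. On the log2 scale the fold change of SAMD9L was 4.19 ± 0.17, 5.18 ± 0.52, 3.17 ± 1.43 and 3.90 ± 0.12, in the same order. Its paralog SAMD9 rose by 3.28 ± 0.17 in U251 RNASeq (edgeR adjusted p = 3.45e-09) and by 4.83 ± 0.13 in U343 RIPSeq (adjusted p = 4.30e-07). In U251 RIPSeq its fold change of 4.70 ± 0.86 did not pass (edgeR adjusted p = 0.0916).

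The 2 miR137 libraries of U343 total RNA were then set side by side. Levels were taken as log2(CPM + 0.5), which understates the change of low genes. Genes that edgeR called lower in U343 RIPSeq by more than 1 on the log2 scale numbered 1104, and in total RNA their median difference from the control mean was -0.97 in miR137 replicate 1 and -1.07 in replicate 2. CDK6, the G1 kinase and a known miR-137 target, had 545 and 643 CPM in the controls and 81.3 and 91.6 CPM in the miR137 libraries. CXCL14, a chemokine, had 666 and 741 CPM in the controls and 75.3 and 97.3 CPM in the miR137 libraries. CDK6 and CXCL14 were named here after their values were seen. Both libraries labelled miR137 thus held lowered levels of these genes. Genes called higher in U343 RIPSeq by more than 1, with the 10 left out, numbered 1405, and their median difference in total RNA was 0.59 in replicate 1, where 268 lay below the control mean, and 1.13 in replicate 2, where 16 did. The replicates therefore differed in raised genes beyond the 10. For the 10 genes that median was 0.33 in replicate 1 and 4.35 in replicate 2. For 35 other interferon-stimulated effectors the medians were -0.06 and 4.35, with 17 and 34 of 35 above the control mean. Reference genes, 10 in number, had medians of -0.11 and -0.14. Library totals were 41599511 counted reads in miR137 replicate 1 and 43909827 in replicate 2, beside 45134766 and 37952273 in the controls. The part of depth or of any other difference between these libraries was not tested.

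The interferon genes themselves split in the same way. IFNB1, a type I interferon made by many cell types, had 1 and 1 reads in the controls and 1 and 817 in the miR137 libraries in U343 RNASeq. IL29, a type III interferon, had 0 and 0 reads in the controls and 0 and 377 in the miR137 libraries, and IL28A, another gene of that type, had 0 and 0 reads in the controls and 0 and 175 in the miR137 libraries. In U343 RIPSeq both miR137 libraries held them, with 1 and 0 reads in the controls and 618 and 919 in the miR137 libraries for IFNB1, and 0 and 0 reads in the controls and 721 and 1585 in the miR137 libraries for IL29. In U251, IFNB1 had 1 and 1 reads in the controls and 5 and 7 in the miR137 libraries in RNASeq. It had 1 and 3 reads in the controls and 299 and 276 in the miR137 libraries in U251 RIPSeq. Of 10 interferon genes listed, edgeR tested 1, 3, 1 and 4 in U251 RNASeq, U251 RIPSeq, U343 RNASeq and U343 RIPSeq and called 1, 2, 0 and 4 higher. The gene tested in both RNASeq experiments was IFNE, an interferon of epithelia, while IFNB1 and IL29 did not pass the filter on low counts there. IFNE had 22 and 20 reads in the controls and 37 and 33 in the miR137 libraries in U251 RNASeq (log2 fold change 1.25 ± 0.30, edgeR adjusted p = 0.0027). In U343 RNASeq, IFNE had 10 and 12 reads in the controls and 5 and 15 in the miR137 libraries (log2 fold change -0.16 ± 0.62, edgeR adjusted p = 0.882), and it was neither past an unadjusted p under 0.05 nor called by DESeq2. The calls in RIPSeq were IFNB1 and IL29 in U251, and IFNB1, IL28A, IL28B and IL29 in U343. The library with the 10 genes at 0.259 to 2.76 times their control mean was thus the miR137 library with IFNB1 at 1 read and IL29 at 0. Whether same-numbered RNASeq and RIPSeq libraries came from the same dish is not given in the labels.

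**Figure D3:**
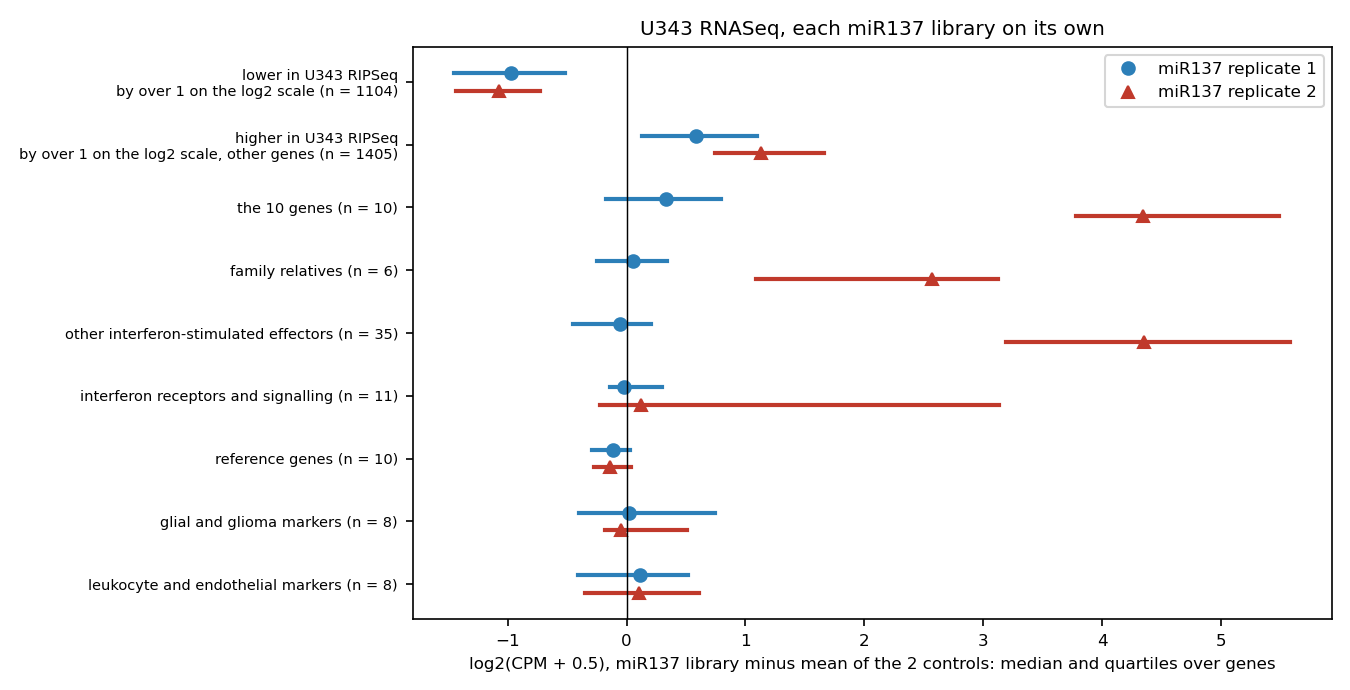
U343 RNASeq, difference in log2(CPM + 0.5) of each miR137 library from the mean of the 2 controls (x axis), as the median (symbol) and quartiles (line) over the genes of each list; blue circles replicate 1, red triangles replicate 2. Both replicates lie near -1 for genes lowered in RIPSeq, and they separate for the 10 genes (0.33 and 4.35) and for the other interferon-stimulated effectors (-0.06 and 4.35).

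**Figure D4:**
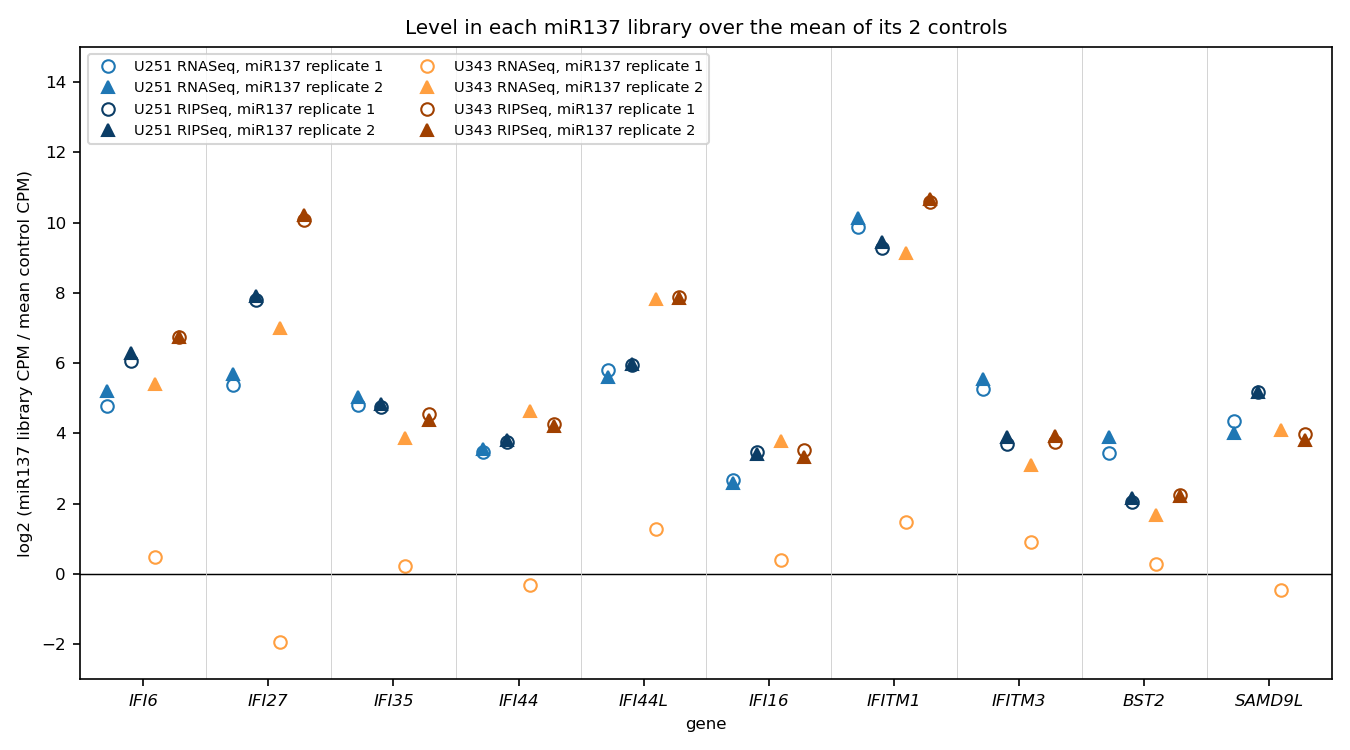
log2 ratio of each miR137 library to the mean of its controls for the 10 genes; colours give line and assay, circles replicate 1 and triangles replicate 2. U343 RNASeq replicate 1 lies between -1.95 (IFI27) and 1.46 (IFITM1), and the other 7 miR137 libraries lie above 0 for every gene.

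The rest of the pathway was described with lists chosen when earlier results of these data were known. Of 35 other interferon-stimulated effectors, edgeR called 35 higher in U251 RNASeq, 29 in U251 RIPSeq, 0 in U343 RNASeq and 33 in U343 RIPSeq, and none lower in any of these. Their median log2 fold changes were 4.54, 4.98, 3.60 and 4.55, close to those of the 10 genes. In U343 RNASeq, 7 of the 35 were higher at an unadjusted p under 0.05 and DESeq2 called 11. The share of all genes at those settings is not given here, for this list or the lists below. Without miR137 replicate 1 the median log2 fold change of the 35 there was 4.52. Those not called in U343 RIPSeq were MX1 and LAMP3, named here after their values were seen. MX1, a GTPase that blocks influenza virus, had 10.7 and 9.54 CPM in the controls and 939.6 and 953 CPM in the miR137 libraries in U251 RNASeq (log2 fold change 6.55 ± 0.18, edgeR adjusted p = 6.20e-12). In U343 RIPSeq, where all 10 genes were higher, MX1 had 6.96 and 7.89 CPM in the controls and 8.43 and 9.34 CPM in the miR137 libraries (log2 fold change 0.26 ± 0.13, edgeR adjusted p = 0.127). In U343 RNASeq, MX1 had 9.46 and 9.61 CPM in the controls and 4.56 and 10.1 CPM in the miR137 libraries. The response of MX1 in U343 minus that in U251 was -6.39 ± 0.25 in RIPSeq (edgeR adjusted p = 2.54e-04) and -6.93 ± 0.46 in RNASeq (adjusted p = 2.22e-04). LGALS3BP, ISG15 and IFIT1 were named for the highest mean CPM of the list over the 16 libraries. ISG15, a ubiquitin-like protein, had 35.1 and 41.0 CPM in the controls and 3501 and 3235 CPM in the miR137 libraries in U251 RNASeq (log2 fold change 6.47 ± 0.20, edgeR adjusted p = 2.49e-11). In U343 RIPSeq, ISG15 had 12.3 and 11.0 CPM in the controls and 2391 and 2382 CPM in the miR137 libraries (log2 fold change 7.68 ± 0.16, edgeR adjusted p = 1.61e-07). IFIT1, which binds foreign RNA ends, had 9.84 and 11.0 CPM in the controls and 1440.2 and 1601 CPM in the miR137 libraries in U251 RNASeq (log2 fold change 7.19 ± 0.19, edgeR adjusted p = 6.20e-12). The secreted glycoprotein LGALS3BP changed less, by 2.19 ± 0.14 in U251 RNASeq (edgeR adjusted p = 4.94e-08) and 2.08 ± 0.14 in U343 RIPSeq (adjusted p = 2.21e-05).

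Of the 11 family relatives, 10 were in the tables, and 7 passed the filter on low counts in U251 RNASeq, U251 RIPSeq and U343 RIPSeq. All 7 were called higher in U251 RNASeq and in U343 RIPSeq, 1 (NMI) in U251 RIPSeq, and 0 of 6 in U343 RNASeq, where 2 had an unadjusted p under 0.05 and DESeq2 called 1. Without miR137 replicate 1, the median log2 fold change of the 7 tested in U343 RNASeq was 2.86. IFI30, a lysosomal thiol reductase, was the relative whose change differed between the lines in RIPSeq, by 2.27 ± 0.325 (U343 minus U251, edgeR adjusted p = 0.02), a call lost without any single U251 miR137 or U343 library. It had 14.0 and 20.9 CPM in the controls and 41.8 and 50.9 CPM in the miR137 libraries in U251 RIPSeq (log2 fold change 1.41 ± 0.32, edgeR adjusted p = 0.126). In U343 RIPSeq, IFI30 had 7.94 and 7.55 CPM in the controls and 88.7 and 103 CPM in the miR137 libraries (log2 fold change 3.63 ± 0.11, edgeR adjusted p = 5.90e-07).

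Among 11 interferon receptors and signalling genes the calls went both ways. In U251 RNASeq 5 were higher and 2, the receptor chain IFNAR1 and the kinase JAK1, were lower. In U343 RIPSeq 5 were higher and 2, IFNAR1 and the kinase TYK2, were lower. U251 RIPSeq gave 2 higher, and U343 RNASeq 0 (3 higher and 1 lower at an unadjusted p under 0.05, 3 and 1 by DESeq2). STAT2, a transcription factor of the pathway, rose by 1.81 ± 0.13 and 2.46 ± 0.11 in U251 RNASeq and U343 RIPSeq (edgeR adjusted p = 1.36e-07 and 3.23e-06). JAK1 fell by 0.50 on the log2 scale in U251 RNASeq (edgeR adjusted p = 0.0104), and its change of -0.07 ± 0.13 in U343 RIPSeq did not pass (adjusted p = 0.703).

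The genes whose 4 log2 fold changes lay nearest to the medians of the 10 were found among 12182 genes tested in all 4 experiments, by root mean square difference. They were IRF9 (0.17), the DNA-binding subunit of the interferon-activated factor, then OAS3 (0.29), HERC6 (0.58), TLR3 (0.66) and C19orf66 (0.66). IRF9 had log2 fold changes of 4.72, 4.92, 3.39 and 4.13 in U251 RNASeq, U251 RIPSeq, U343 RNASeq and U343 RIPSeq. Among the 10 themselves, IFI35 lay nearest to the medians (0.24) and IFITM1 farthest (5.16).

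Markers that moved with the comparison are given beside it. The summed level of the 12 leukocyte and endothelial markers was 35.9 to 36.2 CPM in the U251 RNASeq controls and 103 to 119 after miR137, where CD14, CD68 and KDR were the only markers at 1 CPM or more and CD3E, LYZ and SPI1 were at 0 in both controls. In U251 RIPSeq the sums were 29.2 to 34.3 and 115 to 126 CPM. In U343 they were 33.9 to 42.7 and 46.2 to 72.4 in RNASeq, and 35.2 to 43.7 and 117 to 138 in RIPSeq. CD68, a lysosomal protein used to mark macrophages, went from a mean of 9.06 to 83.1 CPM in U251 RNASeq, 16.1 to 95.4 in U251 RIPSeq, 3.71 to 19.3 in U343 RNASeq and 3.25 to 101 in U343 RIPSeq. The endothelial receptor KDR was present in U251, at 25.7 and 25.4 CPM in RNASeq and 10.9 and 21.4 in RIPSeq. The endothelial genes CDH5 and VWF were present in U343, where CDH5 went from 21.2 to 10.8 CPM in RNASeq and from 25.7 to 8.71 in RIPSeq. VWF went from 8.77 to 24.8 CPM in U343 RNASeq and from 6.91 to 13.9 in U343 RIPSeq. The summed glial and glioma markers were 12504 to 12890 CPM in the U251 RNASeq controls and 6204 to 6403 after miR137. In U251 RIPSeq these were 11337 to 15956 and 8331 to 8459 CPM. For U343 they overlapped between control and miR137 libraries in both assays, at 11915 to 12740.3 and 12373 to 14181 CPM in RNASeq and at 15503 to 16677 and 14764 to 16425 in RIPSeq. Overlapping sums do not mean that each marker held. Of the 8 glial and glioma markers, edgeR called 3 lower and 1 higher in U343 RIPSeq, 1 lower and 2 higher in U343 RNASeq, and 0 in U251 RIPSeq. In U251 RNASeq edgeR called 5 of the 8 glial and glioma markers lower and 1 higher. Of the 10 reference genes, 6 were called lower and 2 higher there (median log2 fold change -0.70), and their sum went from 15320.2 to 19007 CPM in the controls to 9264 to 10140.0 after miR137. In U343 RIPSeq 5 of the 10 reference genes were called lower (median -0.38). U251 RIPSeq had 0 called (2 lower at an unadjusted p under 0.05, 0 by DESeq2; median -0.27), and U343 RNASeq had 1 higher and 1 lower (median -0.12). The part of these markers and reference genes in the results on the 10 genes was not tested.

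PABP binds the poly(A) tail of messenger RNA, and the ratio of RIPSeq to RNASeq level, with all 8 libraries of a line scaled together, says how much of a transcript was recovered with PABP beside the typical gene. After miR137 in U251, the ratios of the 10 genes ran from 0.507 (SAMD9L) to 2.46 (IFI6), with a median of 1.23. In the U251 controls they ran from 0.175 (IFI27) to 4.68 (BST2), with a median of 1.01. BST2 went from 4.68 to 1.49, IFITM3 from 4.24 to 1.33, and IFI27 from 0.175 to 0.839. The control ratios of BST2 and IFITM3 rest on RIPSeq controls that differed, and over pairs of a RIPSeq and an RNASeq library they ran from 2.93 to 6.52 and from 1.96 to 6.98. For IFI27 the control pairs ran from 0.154 to 0.200 only. The log2 response in RIPSeq minus that in RNASeq was -1.65 ± 0.49 for BST2 with both RIPSeq controls, -0.94 without replicate 1 and -1.99 without replicate 2. For IFITM3 it was -1.66 ± 0.63, -0.61 and -2.14, and for IFI27 2.26 ± 0.30, 2.41 and 2.30. SAMD9L stayed below 1 for every pairing of a RIPSeq and an RNASeq library of this line, at 0.261 and 0.507.

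In U343 the control ratios ran from 0.458 (IFI27) to 2.87 (IFITM3), with a median of 1.24. After miR137 they ran from 0.916 (SAMD9L) to 10.7 (IFITM1), with a median of 3.61, when both total RNA libraries were used. With miR137 replicate 2 of total RNA alone the range was 0.477 to 5.39 and the median 2.19. On that basis IFITM1 was at 5.39, IFITM3 at 4.79, IFI6 at 4.28 and IFI27 at 4.00. By contrast SAMD9L (0.477), IFI16 (0.714) and IFI44 (0.811) were below 1. SAMD9L was below 1 in the controls of both lines as well, and IFI6, IFI35, IFITM1, IFITM3 and BST2 were above 1 in the controls and after miR137 in both lines.

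By edgeR after miR137, IFI6 was past the threshold in U251 (log2 difference 1.30 ± 0.22), beside 12.2% of all genes higher and 12.6% lower in PABP-bound RNA. In U343, IFITM3 (2.98 ± 0.62) and BST2 (1.72 ± 0.39) were past it, beside 18.4% of all genes higher and 16.8% lower. Without miR137 replicate 1 of U343 total RNA, 9 of the 10 passed, all but IFI44L, beside 38.4% of all genes, with IFI16, IFI44 and SAMD9L lower in PABP-bound RNA and the other 6 higher. In U251, 6 of the 10 passed without RIPSeq control replicate 1, beside 61% of all genes, and 6 without RIPSeq control replicate 2, beside 57.4%. The difference of the response between the assays passed for 0 of the 10 in U251, where edgeR called 0.134% of all genes at the adjusted threshold. There 5 of the 10 had an unadjusted p under 0.05, but the share of all genes at that setting is not given here. In U343 the difference passed for 0 of the 10, where edgeR called 0.00649% of all genes, with 0 of the 10 at an unadjusted p under 0.05. Without miR137 replicate 1 of U343 RNASeq, IFI6 and IFI27 passed, beside 0.191% of all genes, and without miR137 replicate 2 all 10 passed, beside 19.8%. In U251, 3 of the 10 passed without RIPSeq control replicate 1, beside 20.1% of all genes, and 9 without RIPSeq control replicate 2, beside 58% of all genes.

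**Figure D5:**
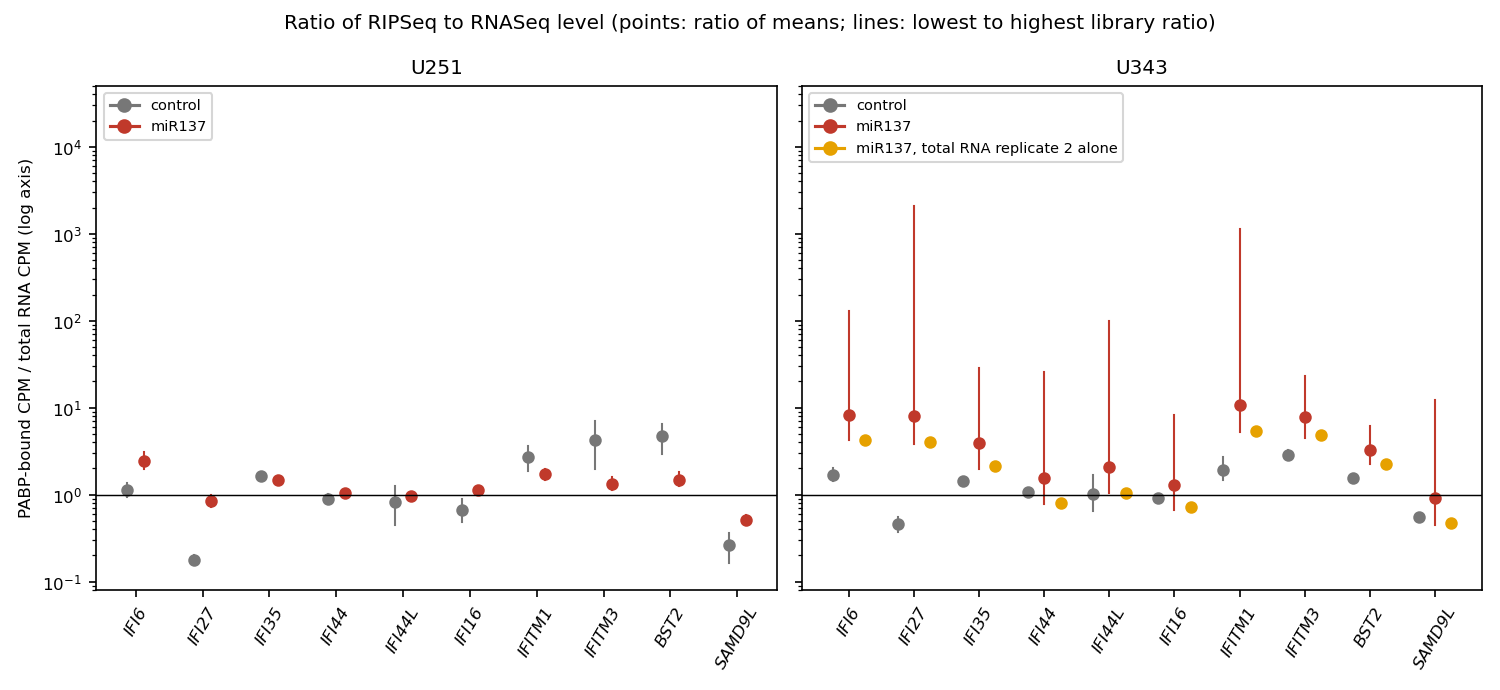
Ratio of PABP-bound to total RNA level (log axis) for the 10 genes in U251 and U343; grey controls, red miR137, yellow miR137 with total RNA replicate 2 alone, points the ratio of group means and lines the lowest to highest ratio of a RIPSeq to an RNASeq library. The red lines in U343 include total RNA replicate 1, and without it the ratios ran from 0.477 to 5.39.

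The size of the response was set side by side between the lines. In RIPSeq, IFI27 differed past the edgeR threshold, by 2.29 ± 0.31 on the log2 scale (U343 minus U251), beside 3.28% of all genes called. Leaving out 1 of the 8 libraries gave 2.09 to 2.51, past the threshold in 2 of the 8 fits. IFI27 had 231-fold higher mean CPM after miR137 in U251 and 1129-fold in U343, from a lower control level in U343. The differences of the other 9 in RIPSeq lay between -1.24 (SAMD9L) and 1.96 (IFI44L). Without U251 control replicate 1 SAMD9L was at -0.78 and IFI44L at 2.48, and without U251 control replicate 2 they were at -1.99 and 1.09. IFITM3 changed sign with the U251 control used, at 0.11 with both, -0.86 without replicate 1 and 0.63 without replicate 2. BST2 did so too, at 0.19, -0.45 and 0.57. The fits without U251 control replicate 1 or 2 called 33.7% and 52.8% of all genes. In RNASeq, BST2 (-2.57 ± 0.53) and IFITM3 (-3.03 ± 0.81) had a smaller response in U343, beside 25.2% of all genes called. Without U343 miR137 replicate 1 their differences were -2.03 and -2.31, and 7 of the 10 genes passed the threshold, beside 32.7% of all genes: BST2, IFITM3 and IFI35 with a smaller response in U343, and IFI16, IFI27, IFI44 and IFI44L with a larger one. Both had higher control levels in U343 than in U251 total RNA, with IFITM3 at 22.3 and 23.8 CPM against 5.69 and 4.71.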

How the data were processed

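Sequencing measured total RNA (RNASeq) and PABP-bound RNA (RIPSeq) in 16 libraries, 2 per group. The deposited files hold raw read counts per gene, 1 file per library. The authors used RMAP to align reads to hg18 and made counts on RefSeq isoforms collapsed to 1 super-transcript per gene. Versions, multi-mapping and strand handling are not given in the sources used here, so reads of near-identical or overlapping genes cannot be divided. Replicates were not pooled. The strand column of the U251 tables was not used, and SLC35E2, on 2 lines of the U251 tables, kept its first line.

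Here miR137 was compared with control within each line and assay by edgeR 4.0.16 (R 4.3.3, limma 3.58.1): TMM scaling, filterByExpr, quasi-likelihood F tests and Benjamini-Hochberg adjustment over all genes tested, with a threshold of 0.05. Differences of the response between assays or lines were interaction terms in fits of 8 libraries. PABP-bound against total RNA after miR137 was the assay effect within the miR137 libraries, from a fit of the 8 libraries of a line. Alternatives were DESeq2 1.42.0, upper-quartile scaling, no filter beyond 1 read, the replicate number as a block, a joint fit, the study's pairwise Fisher rule and leaving out each library. Scripts were tested on simulated data. CPM used effective library sizes, counting intervals were exact at 95% (scipy 1.17.1, Python 3.11.15), and promoter motifs were searched in RefSeq windows of GRCh38.p14, a build other than that of the counts. Depth ranged from 10156675 to 45134766 counted reads.

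The 10 genes and all gene lists were chosen with earlier results of these data known. The 10 genes and their family relatives were named in all cases. From each further list the 3 genes with the highest mean CPM were named, together with the 5 genes nearest to the medians of the 10. Other genes are said to have been named after their values were seen. Values of 1 gene of the signalling list and 1 marker are not reported here.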

Additional observations from a re-analysis of the deposited data

Results flagged for a closer look

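The response to miR137 differed between U343 and U251 (U343 minus U251, log2 scale, edgeR interaction of line and transfection) for 3 of the 10 genes, 1 in RIPSeq, where 3.28% of all genes were called, and 2 in RNASeq, where 25.2% were. A count of 2 in 10 is no more than that background and says nothing about the 10 genes. In RIPSeq the difference of IFI27 was 2.29. It was 2.09 to 2.51 when 1 of the 8 libraries was left out, past the threshold in the 2 fits without a U251 control, and not past it with replicate number as a block. In RNASeq the difference of BST2 was -2.57, ranging from -3.42 to -2.03 with 1 library left out, and it was past the threshold in 6 of 8 such fits, the exceptions being those without U251 control replicate 2 or U251 miR137 replicate 2. The difference of IFITM3 in RNASeq was -3.03, ranging from -4.50 to -2.31, and it was past the threshold in 2 of 8 such fits, those without a U343 miR137 library. These 3 values rest on counts that chose the genes.

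Among related genes, IFI30 responded more in U343 RIPSeq by 2.27 (edgeR adjusted p = 0.02, and 2.55e-05 to 0.272 over the alternatives). Of the 35 other interferon-stimulated effectors, edgeR called 3 as responding more in U343 RIPSeq and 9 as responding less, beside 3.28% of all genes. In RNASeq it called 0 as responding more and 4 as responding less, beside 25.2% of all genes, and the lowest difference was -7.78. Only some of these are named here. IFIT1 responded less in U343 RIPSeq by -2.26 (edgeR adjusted p = 0.0153, and 1.02e-05 to 0.193 over the alternatives). MX1 responded less in U343, by -6.39 in RIPSeq (edgeR adjusted p = 2.54e-04, and 1.1e-07 to 0.0252 over the alternatives) and -6.93 in RNASeq (adjusted p = 2.22e-04, and 2.52e-11 to 0.00498), past the threshold in all 8 fits that left out 1 library in either assay. LAMP3, a lysosomal membrane protein, responded less in U343 by -2.49 in RIPSeq (edgeR adjusted p = 0.0137, and 5.27e-05 to 0.145 over the alternatives) and by -3.78 in RNASeq (adjusted p = 0.00106, and 1.98e-05 to 0.0102). The lines also differed in library kit, and the part of the kit was not tested. Groups of 2 libraries were too small for a check of single libraries against their group.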

How the results depend on the processing

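Counts of genes past the threshold moved in 42 and held within 1.5 times in 104 of the alternatives. Apart from the pairwise rule, the share of all genes called is not given here for the settings that follow. Those counts thus have no background beside them. Without a filter beyond 1 read, U251 RIPSeq gave 5 of the 10 genes and 19 of the other interferon-stimulated effectors, and the assay difference in U251 gave 1. In U343 RNASeq, DESeq2 called 6 of the 10 and 11 of the other effectors, the joint fit 5 and 12, and the pairwise rule 1 of the other effectors. PABP-bound against total RNA in U251 gave 2 with upper-quartile scaling. Fits with the replicate block called 10 of the 10 and 34 other effectors in U251 RIPSeq, and 0 of the 10 for the line difference in RIPSeq, and left the other counts of the 10 as they were; with the block the median log2 fold change of the 10 in U343 RNASeq was 2.13. Same-numbered control and miR137 libraries had correlations of their deviations of 0.03, 0.04, 0.14 and 0.28 in U251 RNASeq, U251 RIPSeq, U343 RNASeq and U343 RIPSeq, so with 2 pairs each the numbers were not shown to pair the libraries.

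With 1 library left out, the 10 genes past the threshold numbered 10 throughout in U251 RNASeq and U343 RIPSeq, 9 to 10 in U251 RIPSeq and 0 to 10 in U343 RNASeq. The other effectors numbered 35, 33, 32 to 35 and 0 to 33. PABP-bound against total RNA gave 0 to 6 in U251 and 1 to 10 in U343, the assay difference 0 to 9 in U251 and 0 to 10 in U343, and the line difference 0 to 7 in RIPSeq and 0 to 10 in RNASeq. Fold changes of single genes held in 317 cases, passed the threshold anew in 37, lost it in 3 and changed sign in 3: in U343 RNASeq, IFI27 ran from -1.90 to 6.99, IFI44 from -0.31 to 4.62 and SAMD9L from -0.45 to 4.10, each lowest without miR137 replicate 2 and highest without miR137 replicate 1. The share of all genes called higher held in 21 of the alternatives and moved in 19. The U343 RNASeq results thus depend on which miR137 library is used. The cause was not tested. With 1 library in an arm, the lone library is assumed to vary like the others. At 4 to 12 control reads per library in U343, the size of the IFI27 change is set by few counts.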

Other observations

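The palindromic letters TTCNNNGAA occurred in the promoter windows of 4 of the 10 genes, against 7 of 26 other interferon-stimulated effectors (26.9%) and 9.38% of all genes with a window. The table gave 3 of the 10 genes (IFI27, IFI44 and IFI16) 2 promoter windows each, and counts per gene do not tell which start was used.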
